A study of Mus musculus with 49 samples.

Results

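The genes described here are 35 mouse genes of cholesterol synthesis, uptake and efflux, out of 24192 gene names in the 5 expression tables of a study of the ETS transcription factor Elf4. They were chosen by name: 18 enzymes of the sterol pathway, 5 genes that control it through the SREBP factors, 2 fatty acid enzymes that share that control, 5 genes of the LXR and efflux arm, and 5 genes of sterol transport, storage and oxysterol production. All 35 were listed among the 14896 genes of the macrophage table. The T cell experiments, with 4 tables, listed 34 of them and left out Ch25h.

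RNA-seq was run on macrophages that had been grown from bone marrow with M-CSF for 7 days, and on CD4 T cells, all from C57BL/6 mice. Elf4 KO and WT macrophages were untreated (0 h) or given 100 ng/ml of LPS, a bacterial cell wall lipid that activates TLR4, for 4 h or 16 h, with 3 libraries in each group. The naive CD4 T cells formed 2 sets, Elf4 KO (4 libraries) with WT (3), and Elf4 W250S with WT (3 each); W250S is the name the labels give to a mutant Elf4 allele. T cells of the W250S set were also cultured for 48 h towards pathogenic Th17 cells with IL-6, IL-23 and IL-1b, or towards non-pathogenic Th17 cells with IL-6 and TGF-beta (3 libraries per genotype and condition). ATAC-seq, which reads open chromatin, covered naive T cells labelled KO and WT (3 each). The labels name no Cre driver and no sorting gate. They give 6 numbered sources of cells for the Th17 cultures, each used for both conditions.

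Cells make cholesterol from acetyl-CoA through mevalonate, squalene and lanosterol. When sterol in the endoplasmic reticulum is low, Scap carries the SREBP precursors (Srebf1, Srebf2) to the Golgi for cleavage, and the released factors switch on the enzymes of the pathway, while Insig1 and Insig2 hold the precursors back when sterol is plentiful. When sterol is high, oxysterols activate the LXR receptors (Nr1h3, Nr1h2), which induce the efflux pumps Abca1 and Abcg1 and the ubiquitin ligase Mylip. In macrophages this balance is known to shift with inflammatory activation, and T cells raise sterol synthesis when they begin to divide.

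SREBP factors act beside NF-Y, whose binding motif is the CCAAT box. RefSeq promoter windows (GRCm38.p6, 250 bases before to 50 bases after the start) matched 28 of the 35 genes; Fdps, Fdft1, Sqle, Scd2, Abcg1, Npc1 and Stard4 had no entry in the table used here. CCAAT, read on both strands, stood in the windows of 22 of the 28 genes (78.6%), and in 41.1% of the 27025 genes of the table. The sterol element core CACNCCAC stood in 3 of the 28 (Acat2, Hmgcs1 and Insig1) and in 7.12% of all genes. The ETS core CCGGAA stood in 8 of the 28 (28.6%) and in 16.7% of all genes. The LXR repeat GGTCANNNNGGTCA stood in 0 of the 28 and in 0.0518% of all genes. These matches describe letters in the window and are not binding sites. The 120 bases before the start are shown for 7 genes that differed between KO and WT macrophages at 16 h, as examples of the 15 called there. Srebf2, also called there, held neither a CCAAT match nor the sterol element core in its 120 bases and is not shown. Capitals mark the CCAAT box on either strand or, in Insig1, the sterol element core.
Mvd: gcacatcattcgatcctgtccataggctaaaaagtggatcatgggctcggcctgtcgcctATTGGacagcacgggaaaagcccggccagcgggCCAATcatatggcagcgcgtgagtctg
Idi1: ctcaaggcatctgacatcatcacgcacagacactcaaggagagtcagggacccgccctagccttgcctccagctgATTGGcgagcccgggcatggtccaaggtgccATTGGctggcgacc
Cyp51: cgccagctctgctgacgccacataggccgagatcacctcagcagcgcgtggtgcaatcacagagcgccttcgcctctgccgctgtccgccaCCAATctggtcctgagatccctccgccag
Hsd17b7: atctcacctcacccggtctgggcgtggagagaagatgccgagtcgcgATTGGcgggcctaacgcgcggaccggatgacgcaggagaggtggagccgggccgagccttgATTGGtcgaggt
Fasn: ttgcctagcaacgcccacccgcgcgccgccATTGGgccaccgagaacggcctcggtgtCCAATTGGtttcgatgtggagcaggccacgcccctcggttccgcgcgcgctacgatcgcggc
Insig1: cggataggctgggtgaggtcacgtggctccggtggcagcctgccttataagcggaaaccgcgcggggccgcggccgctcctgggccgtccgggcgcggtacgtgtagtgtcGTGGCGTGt
Mylip: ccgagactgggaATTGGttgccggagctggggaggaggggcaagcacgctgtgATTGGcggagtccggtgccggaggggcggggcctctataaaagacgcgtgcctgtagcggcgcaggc
The windows are at chr8:122443423-122443542 (minus strand) for Mvd, chr13:8885486-8885605 (plus) for Idi1, chr5:4104698-4104817 (minus) for Cyp51, chr1:169969206-169969325 (minus) for Hsd17b7, chr11:120824548-120824667 (minus) for Fasn, chr5:28071292-28071411 (plus) for Insig1 and chr13:45389622-45389741 (plus) for Mylip. Within these 120 bases Mvd, Idi1, Hsd17b7 and Mylip held 2 CCAAT matches each, Fasn 3 of which 2 overlap, Cyp51 1 and Insig1 none.

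Library depth, read from the smallest step between the deposited values, was 11.5 to 16.8 Mreads (megareads) in macrophages and 46.6 to 70.5 Mreads in T cells. Elf4 itself was at 22.0, 17.2 and 29.5 CPM (read counts scaled to library size, mean of 3) at 0, 4 and 16 h in KO macrophages, against 105, 68.7 and 132 CPM in WT. In the naive libraries labelled KO it averaged 189 CPM, against 191 CPM in WT, so the transcript was not lowered there and these libraries are called KO-labelled below. The macrophage marker sum was between 24130 and 29830 CPM in KO and between 18870 and 20290 CPM in WT at 16 h. The sum of 9 stromal markers was between 854 and 2735 CPM in KO macrophages at 16 h, highest in replicate 2, against 509 to 941 CPM in WT. The sum of 10 cell cycle genes at 16 h was between 290 and 369 CPM in KO and between 271 and 287.5 CPM in WT. By the test used below, 8 of the 10 were higher and 1 lower in KO, where 20.9% of all genes were higher and 9.65% lower. In bulk RNA, fewer cells of a type and less RNA per cell cannot be told apart.

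After LPS most sterol enzymes were at lower CPM in macrophages of both genotypes. Differences are log2 fold changes of CPM + 1 from limma, fitted over 12058 genes, and a gene counted as called when its p, adjusted by Benjamini-Hochberg, was below 0.05. CPM fell for most genes after LPS: the median over all genes was -0.77 in KO and -0.81 in WT at 4 h over 0 h, and -0.30 in KO and -0.41 in WT at 16 h over 0 h, so the cholesterol genes are read against these medians. In KO macrophages 1 of the 35 genes was called up and 28 down at 4 h (15.6% and 70.8% of all genes, 86.4% in either direction), and 4 up and 25 down at 16 h (17.8% and 50.1%, or 67.9%). In WT macrophages 1 was called up and 31 down at 4 h (15.6% and 71.3%, or 86.8%), and 4 up and 27 down at 16 h (18.3% and 56.5%, or 74.8%). From 4 h on the WT genes turned in both directions, with 15 up and 9 down at 16 h over 4 h (51.0% and 22.1% of all genes, or 73.2%). The medians of the 35 genes were -0.99 in KO and -1.02 in WT at 4 h, and -0.78 in KO and -1.05 in WT at 16 h. With median-ratio scaling, which moves the median of all genes close to 0, the splits became 10 up and 16 down in KO and 9 up and 15 down in WT at 4 h, and 7 up and 21 down in KO and 7 up and 26 down in WT at 16 h. The shares of all genes given above are from the fit without this scaling and do not apply to these splits.

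Of the 18 sterol enzymes, 17 in KO and 18 in WT macrophages lay below the all-gene median at 16 h over 0 h, and 11 in KO and 16 in WT did so at 4 h. All 18 were called down in WT at both times. With median-ratio scaling Idi1 and Sc5d were called up at 4 h over 0 h in both genotypes, as was Cyp51 in KO. Under that scaling Fdft1 (0.07), Hmgcs1 (0.16) and Hsd17b7 (0.25) had positive values at 4 h in KO that were not called. Dhcr7, which makes the last double-bond reduction of the pathway, had a level of 26.6, 3.50 and 6.20 CPM at 0, 4 and 16 h in KO and 33.5, 4.85 and 5.10 CPM in WT. Idi1, the isopentenyl diphosphate isomerase, had its lowest mean at 16 h, with 69.2, 62.4 and 17.1 CPM at 0, 4 and 16 h in KO and 77.0, 57.0 and 10.2 CPM in WT. Mvd, the mevalonate diphosphate decarboxylase, had a transient low, at 18.1, 3.04 and 21.2 CPM in KO and 17.7, 1.68 and 11.9 CPM in WT. At 16 h over 0 h Mvd had a value of 0.24 in KO, which was not called, and of -0.54 in WT, which was called. With median-ratio scaling the KO value was 0.54 and called, and the WT value was -0.13 and not called.

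The 2 fatty acid enzymes fell at 4 h over 0 h in both genotypes. Fasn, the fatty acid synthase, was at 146, 22.3 and 37.4 CPM at 0, 4 and 16 h in KO and at 153, 15.7 and 17.5 CPM in WT. Scd2, a fatty acid desaturase, was at 34.4, 4.06 and 32.3 CPM in KO and at 29.4, 2.97 and 11.7 CPM in WT. Among the regulators, Srebf1 fell at 4 h by 1.21 in KO and by 1.40 in WT, while Srebf2 was at 172, 161 and 102 CPM at 0, 4 and 16 h in KO and at 187.9, 142 and 80.9 CPM in WT. Scap, not called at 4 h over 0 h in either genotype, had 60.8, 52.7 and 28.1 CPM at 0, 4 and 16 h in KO and 61.6, 53.0 and 22.2 CPM in WT. With median-ratio scaling Srebf2 and Scap were higher at 4 h over 0 h in both genotypes. Insig2 was called down at 4 h over 0 h, with -0.39 in KO and -0.56 in WT, and was not called at 16 h, with 0.11 in KO and -0.15 in WT. With median-ratio scaling it was called up at both times, at 16 h with 0.42 in KO and 0.27 in WT.

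**Figure D1:**
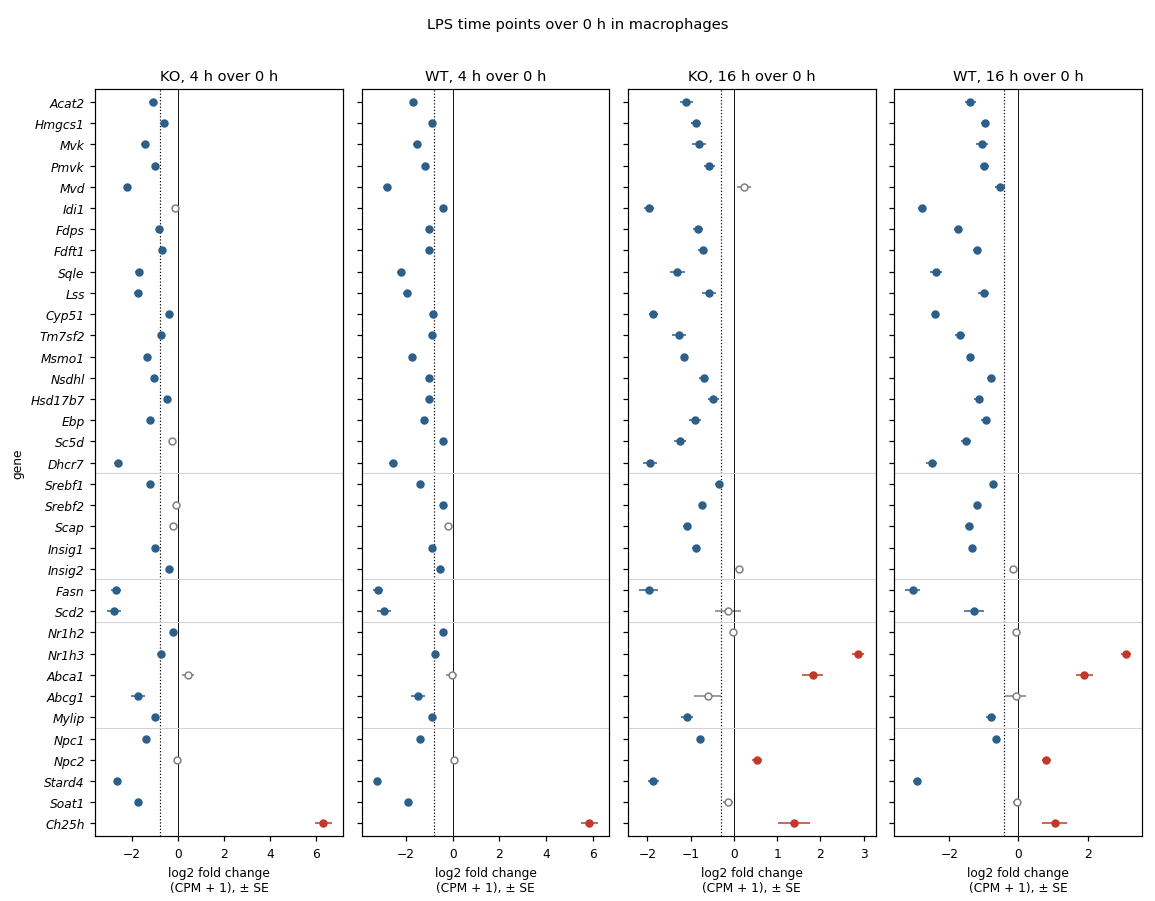
Log2 fold changes (CPM + 1) with their SE at 4 h and 16 h over 0 h in KO and WT macrophages, 1 row per gene in role order; filled points were called (red up, blue down), open points were not, and the dotted line is the median of all genes. Most sterol enzymes lie left of the dotted line at 16 h, where Nr1h3 and Abca1 lie far to the right; with median-ratio scaling the 4 h values of Abca1, Idi1, Insig2, Nr1h2, Nr1h3, Sc5d, Scap and Srebf2 in WT, and of Cyp51, Fdft1, Hmgcs1, Hsd17b7, Idi1, Insig2, Npc2, Nr1h2, Sc5d, Scap and Srebf2 in KO, have the other sign.

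Nr1h3 and Abca1 went the other way at 16 h, while Abcg1 and Mylip did not. Nr1h3, the LXR alpha receptor, stood at 180, 170 and 217 CPM in the KO libraries at 16 h, against 21.2, 25.6 and 27.9 CPM in the KO libraries at 0 h. In WT it stood at 214, 192 and 216 CPM at 16 h, against 24.4, 20.1 and 25.5 CPM at 0 h. The groups do not overlap, and the change was 2.88 (SE 0.14) in KO and 3.10 (SE 0.14) in WT. Abca1, the cholesterol pump of the plasma membrane, rose at 16 h over 0 h by 1.83 in KO and by 1.91 in WT. Abcg1, the second pump, was not called at 16 h over 0 h in either genotype, with -0.61 in KO and -0.07 in WT, after a fall at 4 h of 1.75 in KO and of 1.48 in WT. Mylip was called down at both times in both genotypes, with -1.08 in KO and -0.79 in WT at 16 h. With median-ratio scaling the 4 h calls were lost for Mylip in both genotypes and for Abcg1 in WT, while Abcg1 in KO stayed called.

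Ch25h, which makes an oxysterol from cholesterol, had the largest change of the 35 genes. It was at 1269, 1233 and 1031 CPM in KO and at 1051, 1038 and 801 CPM in WT at 4 h, against 25.9, 15.7 and 5.99 CPM in KO and 21.6, 17.1 and 10.1 CPM in WT at 0 h. Every 4 h library lay far above every 0 h library, with a rise of 6.33 in KO and of 5.85 in WT. At 16 h its mean was 39.3 CPM in KO and 33.4 CPM in WT, still called up over 0 h, by 1.38 in KO and by 1.05 in WT. Stard4, a carrier that moves cholesterol between membranes, fell at 4 h by 2.68 in KO and by 3.24 in WT. Soat1, which esterifies cholesterol for storage, had a low at 4 h, at 215, 62.1 and 192 CPM over the 3 times in KO and 236, 62.5 and 227.6 CPM in WT. Of the lysosomal exit pair, Npc1 fell at 16 h over 0 h by 0.78 in KO and by 0.66 in WT, and Npc2 rose by 0.53 in KO and by 0.81 in WT.

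At 16 h of LPS, 14 of the 35 genes were called up and 1 down in KO over WT macrophages, or 42.9%, where 30.5% of all genes were called (20.9% up and 9.65% down). The median of the 35 log2 fold changes was 0.28, beside 0.12 over all genes. By role, 7 of 18 sterol enzymes, 4 of 5 SREBP control genes, both fatty acid enzymes and Stard4 were up, and Mylip was down. The other 20 genes, among them Hmgcs1 (-0.02), Msmo1 (0.01) and Ebp (-0.15), were not called. With median-ratio scaling 11 were up and 2 down (Npc1 joined Mylip), and leaving out single libraries gave 11 to 16 called genes. The shares of all genes given above do not apply to these counts, and the shares under these settings are not given here.

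Scd2 was at 25.6, 48.6 and 22.8 CPM in the KO libraries at 16 h, against 7.46, 11.0 and 16.6 CPM in the WT libraries. The groups do not overlap, and KO replicate 2 was the highest. The difference was 1.38 (SE 0.30, limma adjusted p = 0.00291) and 1.05 without KO replicate 2. Fasn was at 35.4, 51.0 and 25.7 CPM in KO, against 16.0, 16.7 and 19.95 CPM in WT, again with every KO library above every WT library. Its difference was 1.00 (SE 0.22, limma adjusted p = 0.00281), and 0.76 without KO replicate 2. In KO both genes had the order of the stromal sum (1365, 2735 and 854 CPM in replicates 1 to 3) and of the cell cycle sum (323, 369 and 290 CPM). Hsd17b7 and Srebf2, given below, had this replicate order in KO too, while Sqle, Stard4, Mvd, Idi1, Fdps and Cyp51 did not. The part of these sums in the results was not tested.

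Sqle, the squalene epoxidase, was at 19.6, 23.9 and 22.5 CPM in KO, against 8.10, 11.3 and 12.5 CPM in WT, a difference of 1.00 (SE 0.17, limma adjusted p = 0.000485). Stard4 was at 15.8, 19.8 and 19.1 CPM in KO, against 9.52, 8.91 and 8.84 CPM in WT, a difference of 0.93 (SE 0.12, limma adjusted p = 6.9e-05). The groups did not overlap for either gene. The WT libraries of Sqle ranged from 8.10 to 12.5 CPM, and those of Stard4 from 8.84 to 9.52 CPM. Mvd was at 20.2, 21.7 and 21.6 CPM in KO, against 11.7, 12.7 and 11.3 CPM in WT, and differed by 0.78 (SE 0.16, limma adjusted p = 0.0016). Hsd17b7, a ketoreductase of the late pathway, was at 10.9, 11.2 and 9.89 CPM in KO, against 5.90, 6.47 and 6.08 CPM in WT, and differed by 0.70. Both had KO libraries that clear the highest WT library by more than the spread within a genotype. Idi1 was at 16.8, 15.1 and 19.4 CPM in KO, against 10.1, 10.2 and 10.2 CPM in WT, and differed by 0.69. Fdps, which makes farnesyl diphosphate, was at 32.5, 31.6 and 34.3 CPM in KO, against 19.1, 22.6 and 18.7 CPM in WT, and differed by 0.68. Cyp51, the lanosterol demethylase, was at 13.7, 17.3 and 18.8 CPM in KO, against 12.6, 11.5 and 11.4 CPM in WT, and differed by 0.45. None of these 3 overlapped between genotypes, though the lowest KO library of Cyp51 came within 1.12 CPM of the highest WT library.

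The regulators moved by less. Srebf2 was at 101, 108 and 98.2 CPM in KO, against 75.2, 82.3 and 85.1 CPM in WT, a difference of 0.34 (SE 0.07, limma adjusted p = 0.0021). Scap (0.33), Insig1 (0.32) and Srebf1 (0.28) were also called up, and Insig2 (0.17) was not. The Srebf2, Scap, Insig1 and Srebf1 groups did not overlap except for Scap, whose lowest KO library (25.5 CPM) was below the highest WT library (25.8 CPM). Scap and Insig1 were not called without WT replicate 1 (0.25 and 0.28), WT replicate 2 (0.32 and 0.30) or KO replicate 2 (0.28 and 0.23). Srebf1 was not called without WT replicate 1 (0.21) or KO replicate 2 (0.24), and Fdft1, the squalene synthase (0.38 with all libraries), was not called without WT replicate 1 (0.29). The remaining 10 genes called up were Cyp51, Fasn, Fdps, Hsd17b7, Idi1, Mvd, Scd2, Sqle, Srebf2 and Stard4, and all 10 stayed called with each of the 6 libraries left out and under each of the 7 other settings tried.

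Mylip was the 1 gene called down, at 13.4, 10.1 and 11.1 CPM in KO, against 13.6, 18.4 and 19.3 CPM in WT. Every KO library lay below every WT library, by a narrow margin for WT replicate 1. The difference was -0.53 (SE 0.14, limma adjusted p = 0.0114); it was -0.44 without WT replicate 3 and -0.44 without KO replicate 2, neither of them called. The pumps were not called: Abca1 was at 604, 658 and 550 CPM in KO, against 422, 453 and 468 CPM in WT (0.43, limma adjusted p = 0.187), and Abcg1 at 32.3, 32.4 and 41.7 CPM in KO, against 49.7, 43.3 and 66.1 CPM in WT (-0.56, limma adjusted p = 0.172). Neither overlapped between genotypes at 16 h; fitted on the 16 h libraries alone, Abca1 (0.43, limma adjusted p = 0.0057), Abcg1 (-0.56, 0.025) and Soat1 (-0.24, 0.0156) were called. Nr1h3 (-0.14) and Nr1h2 (-0.01), the LXR receptors, and Ch25h (0.16) were not called at 16 h.

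**Figure D2:**
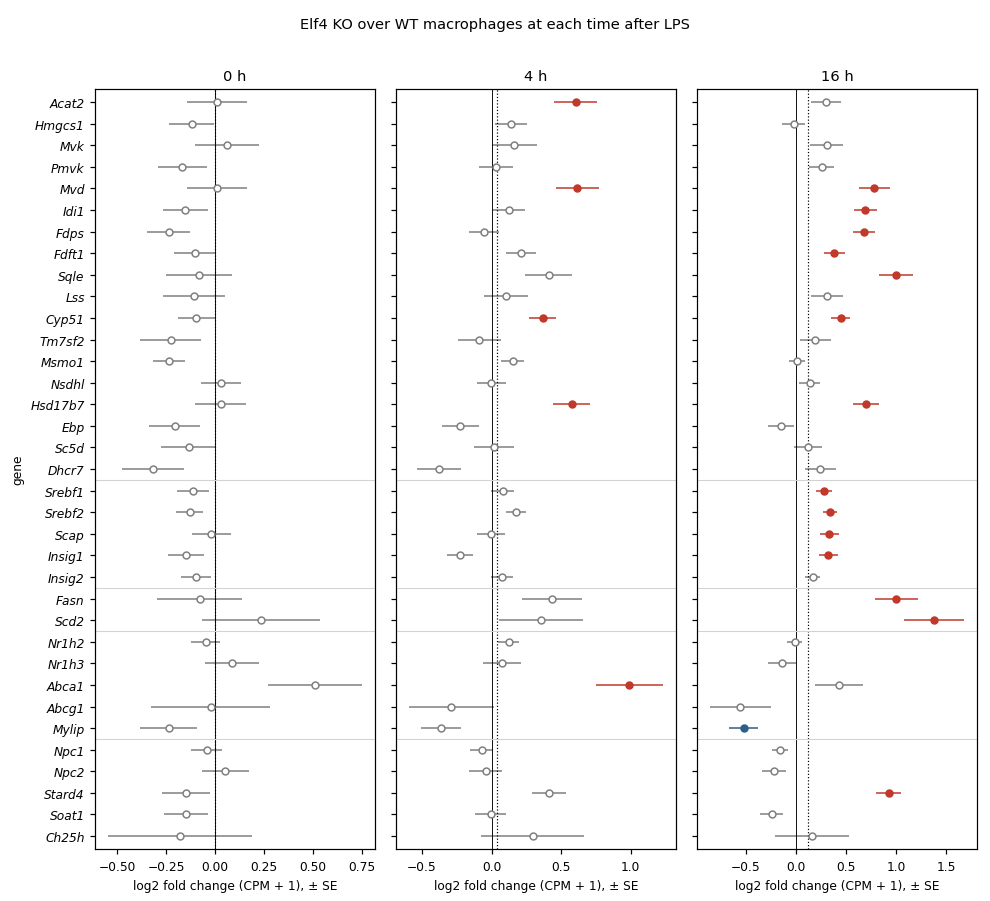
Log2 fold changes (CPM + 1) with their SE of KO over WT macrophages at 0, 4 and 16 h, 1 row per gene in role order; filled points were called (red up, blue down), open points were not, and the dotted line is the median of all genes. At 0 h no gene is filled; at 4 h 5 are, and at 16 h 14 lie to the right and Mylip to the left.

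Before LPS, 0 of the 35 genes were called by limma between KO and WT (0.44% of all genes were, 0.141% up and 0.299% down). An unadjusted p below 0.05 was reached by 3 of the 35, and the share of all genes that reached it is not given here. The median of the 35 was -0.10, beside 0.00 over all genes, with 26 below 0. At 4 h, 5 were called up and 0 down (4.19% of all genes were called, 2.38% up and 1.81% down): Abca1 (0.99), Mvd (0.61), Acat2 (0.60), Hsd17b7 (0.57) and Cyp51 (0.37). Abca1 was at 181, 213 and 310 CPM in KO at 4 h, against 126, 92.1 and 130 CPM in WT, with no overlap and KO replicate 3 the highest. At 0 h it was at 117, 149 and 277 CPM in KO, against 130, 95.02 and 135 CPM in WT, where the groups overlap and KO replicate 3 was again the highest. Acat2, which starts the pathway, was at 8.32, 11.1 and 11.9 CPM in KO at 4 h, against 6.84, 6.61 and 5.94 CPM in WT. The 4 h calls rest on every library: 2 genes were called without KO replicate 1 and without KO replicate 3, 1 without WT replicate 1 and without WT replicate 2, and 0 without KO replicate 2 and without WT replicate 3. Fitted on the 4 h libraries alone, 1 was called.

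**Figure D3:**
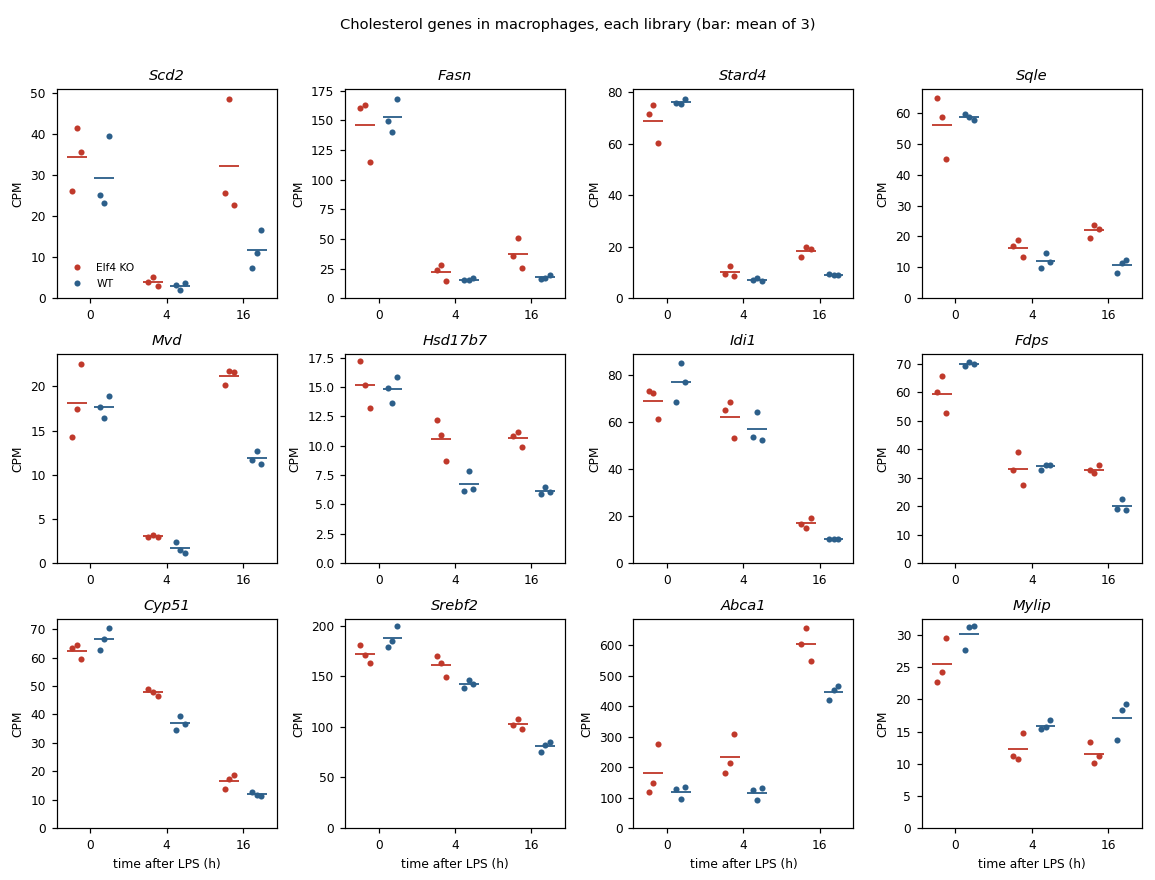
CPM of 12 cholesterol genes in each macrophage library (points) with the mean of 3 (bars), for KO (red, left) and WT (blue, right) at 0, 4 and 16 h after LPS. At 16 h the KO points of the first 10 genes lie above the WT points, as do those of Abca1, and those of Mylip lie below.

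The difference between genotypes at 16 h was larger than that at 0 h for 10 of the 35 genes, by a limma test of the difference itself (6.45% of all genes were called, 3.62% up and 2.83% down): Fasn (1.08), Sqle (1.08), Stard4 (1.08), Fdps (0.92), Idi1 (0.84), Mvd (0.77), Hsd17b7 (0.67), Cyp51 (0.54), Insig1 (0.47) and Srebf2 (0.47). These are also the amounts by which the log2 value of 16 h over 0 h lay higher in KO than in WT. Of the 10 genes, all but Mvd fell in both genotypes, by less in KO, as for Sqle (-1.30 in KO and -2.38 in WT). In the test of the difference Scd2 had a value of 1.15 that was not called (limma adjusted p = 0.105). Stard4, Fdps, Idi1, Sqle and Srebf2 stayed called with each of the 12 libraries left out. The count was 5 without WT 0 h replicate 2, WT 0 h replicate 3, WT 16 h replicate 2 or KO 16 h replicate 2, and 6 without KO 0 h replicate 3, WT 16 h replicate 1 or WT 16 h replicate 3. Against 4 h, the genotype difference at 16 h was larger for Fdps (0.73) and Insig1 (0.55) (4.06% of all genes were called, 2.14% up and 1.92% down). At 4 h against 0 h it was called by limma for 0 of the 35 (0.00829% of all genes). There 8 had an unadjusted p below 0.05, and the share of all genes that reached it is not given here.

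Genes of the same pathways that are not among the 35 were read from lists of their own, beside the 20.9% of all genes called up and 9.65% called down at 16 h. In that comparison, 4 of 7 further sterol and isoprenoid enzymes were up in KO and 0 down, namely Nus1 (0.50), Acat1 (0.48), Aacs (0.35) and Dhdds (0.28). Of 13 further SREBP-linked fatty acid genes 9 were up and 0 down, with Fads2 (1.02), Scd1 (0.86), Elovl6 (0.82) and Acsl3 (0.82) as the highest. The list medians were 0.28 and 0.70, beside 0.12 over all genes. Of 5 SREBP processing genes, Mbtps1, the first protease that cuts SREBP, was up (0.50), and Rnf139, a ubiquitin ligase, was down (-0.22). Of 9 LXR partners and targets, Arl4c (0.50) and Abca7 (0.34) were up and Plin2, a coat protein of lipid droplets, was down (-0.64). Of 12 tested genes of sterol uptake, storage and transfer 2 were up and 2 down, among them Stard3 (-0.70), Scarb1 (0.33) and Nceh1 (-0.30). The 3 of 9 and 4 of 12 called genes of the last lists are near the 30.5% of all genes called.

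In T cells the levels of the pathway in Th17 cultures were set beside those in naive cells. The tables of the 3 states were normalised separately, so levels are set side by side with no test. Of 33 genes compared, 18 in pathogenic and 19 in non-pathogenic WT Th17 cells were at least 2-fold higher than in WT naive cells with no overlap of libraries, where 24.3% and 24.1% of all genes were. In W250S cells 18 in pathogenic and 17 in non-pathogenic cultures were, where 23.4% and 23.3% of all genes were. Scd2 was at 1125 CPM in pathogenic and 1086 CPM in non-pathogenic WT Th17 cells, against 76.2 CPM in WT naive cells. Cyp51 was at 247 and 234 CPM in the same cultures, against 21.5 CPM, and Idi1 at 132 and 117 CPM, against 13.1 CPM. Hmgcs1, the synthase that precedes mevalonate, was at 159 and 149 CPM, against 23.9 CPM, and Insig1 at 103 and 98.8 CPM, against 22.6 CPM. Mylip and the 2 pumps stood the other way in WT. Mylip was at 0.91 and 0.71 CPM in pathogenic and non-pathogenic WT Th17 cells, against 32.0 CPM in naive cells; Abcg1 was at 13.7 and 15.4 CPM, against 53.4 CPM, and Abca1 at 4.32 and 2.84 CPM, against 10.0 CPM. These 3 were the genes at least 2-fold lower in WT, where 11.9% and 11.8% of all genes were. In W250S cells Mylip and Abcg1 were (14.2% and 13.4% of all genes), and Abca1 was not, at 6.51 CPM in pathogenic and 4.10 CPM in non-pathogenic cultures, against 9.07 CPM in naive cells. Srebf2 was below 2-fold, at 179 and 193 CPM, against 101 CPM. Nr1h3 was under 1 CPM in every T cell group and was not tested there.

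**Figure D4:**
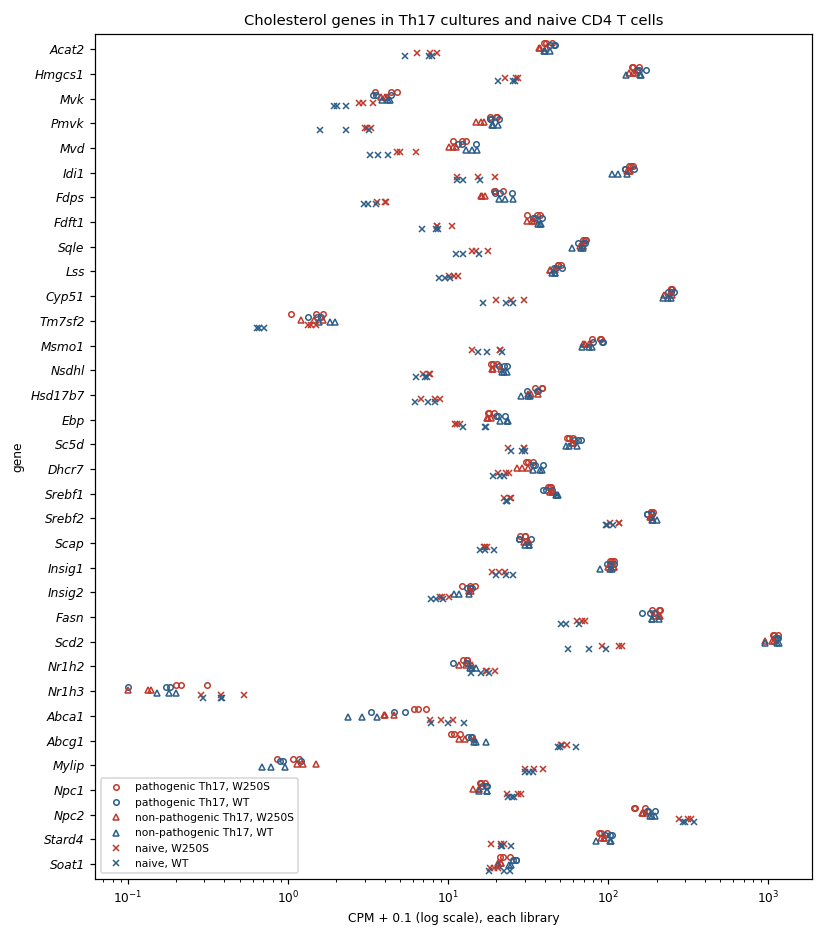
CPM + 0.1 on a log scale of 34 cholesterol genes in each library of pathogenic (circles) and non-pathogenic (triangles) Th17 cultures and naive CD4 T cells (crosses), W250S in red and WT in blue; the 3 states come from tables normalised separately. Most enzymes have the Th17 libraries to the right of the naive ones, and Mylip, Abcg1 and Abca1 have them to the left.

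In non-pathogenic Th17 cultures 5 of 33 tested genes were called down in W250S and 0 up (7.07% of all genes were called, 4.13% up and 2.94% down), and all 5 are sterol enzymes. Fdps was at 16.8, 16.2 and 15.9 CPM in W250S, against 22.7, 20.7 and 25.3 CPM in WT, a difference of -0.47 (SE 0.08, limma adjusted p = 0.012). Mvd was at 10.6, 10.0 and 11.1 CPM in W250S, against 12.9, 14.1 and 15.1 CPM in WT, a difference of -0.37 (SE 0.08, limma adjusted p = 0.0268). The W250S libraries of both lay below every WT library. Ebp, a sterol isomerase (-0.32), Dhcr7 (-0.32) and Pmvk, the phosphomevalonate kinase (-0.27), were the others, and the W250S and WT libraries did not overlap for them. The count was 0 without WT replicate 3, W250S replicate 1 or W250S replicate 2, 1 without W250S replicate 3 and 8 without WT replicate 2. Of genes not called with all libraries, the fit without WT replicate 2 called Abca1 (0.53) and Idi1 (0.28) up and Npc2 (-0.18) down. With median-ratio scaling 1 was up and 8 down. The shares of all genes given above do not apply to these counts. The Th17 marker sum was 171, 182 and 141 CPM in W250S and 94.6, 118 and 90.8 CPM in WT; its part in the result was not tested. Of 12 further SREBP-linked fatty acid genes tested, Acss2 (-0.48) and Lpin1 (-0.39) were down and 10 were not called, and of 7 LXR partners and targets Rxra, the partner of LXR, was up (0.75) and 6 were not called. The 7, 5 and 8 tested genes of the sterol, SREBP processing and uptake lists were not called either (limma).

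In pathogenic Th17 cultures 0 of 32 tested genes were called by limma (2.07% of all genes were, 0.9% up and 1.17% down). An unadjusted p below 0.05 was reached by 9 of the 32, and the share of all genes that reached it is not given here. Abca1 was at 6.38, 5.98 and 7.15 CPM in W250S, against 3.20, 4.46 and 5.29 CPM in WT, and Abcg1 at 10.8, 11.8 and 10.4 CPM in W250S, against 13.2, 14.0 and 13.8 CPM in WT. The groups of both genes did not overlap, and the differences of 0.51 and -0.29 missed the threshold (limma adjusted p = 0.0808 and 0.0767). Of the 7 LXR partners and targets tested there, Rxra was up (0.78) and 6 were not called. The W250S difference in pathogenic minus that in non-pathogenic cultures was called for 0 of 32 genes and for 0 of all 12642 (limma), with 2 of the 32 at an unadjusted p below 0.05. For that count too, the share of all genes is not given here. Fdps had the greatest such difference, 0.36 (SE 0.12, limma adjusted p = 0.605).

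In naive cells Scd2 was higher in the KO-labelled and in the W250S libraries than in their WT. It was at 95.2, 92.6, 88.7 and 107 CPM in KO-labelled cells, against 48.7, 68.1 and 67.6 CPM in WT, and at 116, 91.6 and 122 CPM in W250S cells, against 96.96, 56.1 and 75.4 CPM in WT. The KO-labelled and WT libraries did not overlap, while 1 WT library of the W250S set lay above the lowest W250S library. The differences were 0.65 (SE 0.11, limma adjusted p = 0.0049) and 0.55 (SE 0.15, limma adjusted p = 0.0496). Mvd was also up in KO-labelled cells (0.34) and Tm7sf2, a sterol reductase, in W250S cells (0.56), at 1.23, 1.39 and 1.28 CPM in W250S, against 0.61, 0.56 and 0.54 CPM in WT. In all, 2 of 33 tested genes were called in KO-labelled cells (8.02% of all genes were, 4.38% up and 3.64% down) and 2 of 33 in W250S cells (4.14%, 3.29% up and 0.856% down), with medians of 0.02 and 0.11 beside 0.01 and 0.07 over all genes. The KO-labelled Scd2 call stayed with each of the 7 libraries left out. In the W250S set, leaving out 1 library gave 0 called genes for WT replicates 2 and 3 and for each W250S library, and 3 for WT replicate 1; in the KO-labelled set Scd2 alone was left without WT replicate 1, WT replicate 3, KO-labelled replicate 1 or KO-labelled replicate 2. The Mvd call in KO-labelled cells was lost in 6 of these 7 fits, all but the one without KO-labelled replicate 4, and with no filter, a filter of 5 CPM or median-ratio scaling.

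**Figure D5:**
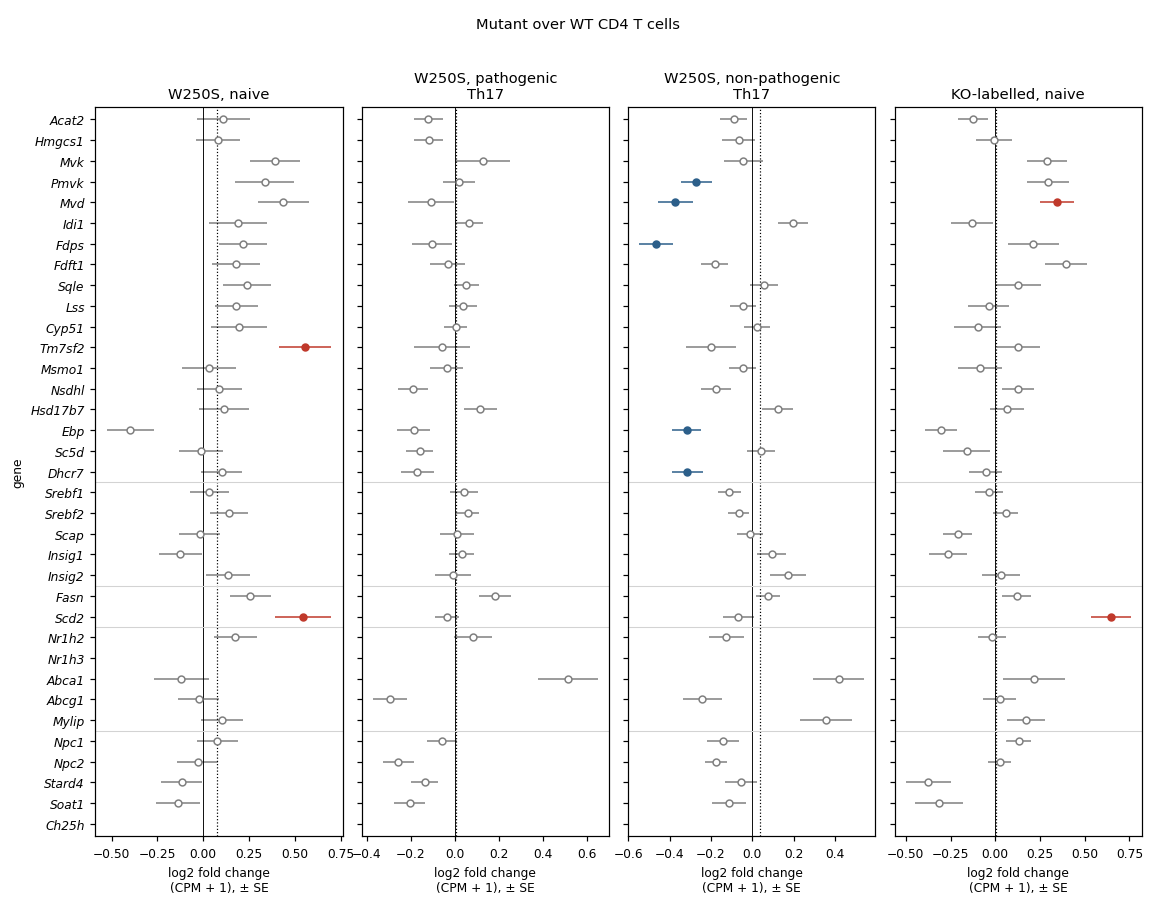
Log2 fold changes (CPM + 1) with their SE of W250S over WT in naive, pathogenic Th17 and non-pathogenic Th17 cells, and of KO-labelled over WT naive cells, 1 row per gene in role order; filled points were called (red up, blue down), open points were not, rows with no point were not tested, and the dotted line is the median of all genes. Scd2 is filled in both naive panels and 5 sterol enzymes are filled in the non-pathogenic panel.

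Open chromatin at these genes was compared between KO-labelled and WT naive cells. The peak table held 104 peaks annotated to 33 of the 35 genes, 52 of them at the start site, and 60 had enough reads for the edgeR test. None of the 60 was called by edgeR (0.00851% of all 47000 tested peaks were, 0.00638% up and 0.00213% down), and DESeq2 called 1. An unadjusted p below 0.05 was reached by 4 of the 60, and the share of all peaks that reached it is not given here. The greatest of these 4 at a start site was at Scap (chr9:110333075-110333995, mm10), with 49.5, 50.2 and 51.7 CPM (of the reads in peaks) in KO-labelled cells, against 40.3, 31.0 and 26.8 CPM in WT. The groups did not overlap, and the difference was 0.62 on the log2 scale (edgeR adjusted p = 0.187). The peak over the Fasn start site had 157, 171 and 168 CPM in KO-labelled cells, against 152, 129 and 111 CPM in WT (0.32, edgeR adjusted p = 0.341). At Mvd, whose promoter sequence is given with the others, the peak had 76.5, 86.5 and 79.2 CPM in KO-labelled cells, against 83.6, 78.8 and 92.9 CPM in WT (-0.10), and the groups overlapped. Reads in peaks were 13.7, 9.61 and 13.5 Mreads in KO-labelled cells and 6.19, 6.56 and 9.71 Mreads in WT, so the WT values carry more counting error. Without WT replicate 1, 4 peaks annotated to these genes were called. The share of all peaks called in that fit is not given here, and the share above is from the fit with every library.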

How the data were processed

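The genes and lists were chosen with earlier results of these data known. The authors deposited RNA-seq as normalised CPM tables, 1 per experiment, and ATAC-seq as a table of estimated counts (expected counts) per annotated peak, with peak coordinates on mm10. BWA, Bowtie2, MACS2, DESeq2 and Partek 10.0.21.0411 are named in the submitters' processing notes; which step used which, the RNA aligner and the annotation are not given in the sources used here. The deposited CPM sum to between 950599 and 954161 per library in macrophages and between 472848 and 543838 in T cells, so levels were tested only within a table; Th17 and naive levels, from separate tables, are set side by side with no test.

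Values were taken as log2(CPM + 1), on which fold changes of low genes are understated. Genes at 1 CPM or more in at least 3 libraries of a table were fitted with limma 3.58.1 (R 4.3.3): 1 model of 6 groups for macrophages, 1 model for each T cell table, and 1 model of the pathogenic minus non-pathogenic log2 difference of each source of cells. Benjamini-Hochberg adjustment ran over all genes. Counts at an unadjusted p below 0.05 and counts under alternative settings are given without the share over all genes, and are not read as results about these genes. ATAC counts, rounded to whole numbers, were tested with edgeR 4.0.16 (quasi-likelihood); CPM of peaks use the reads in peaks. The scripts were tested on simulated data. By the rule for named genes, values are given for up to 6 called genes with the largest change each way, the SREBP regulators, the efflux and oxysterol genes, and up to 4 called genes of each further list; the other called genes were named after their values were seen. The macrophage header gives each library its own mouse number; the T cell sources used here do not say whether all libraries come from separate animals, and p-values measure the spread between libraries. Replicate numbers did not pair KO with WT macrophages (correlations of deviations between -0.197 and 0.123). Same-numbered WT libraries of different times deviated together (0.108 to 0.307, all 9 pairs above 0.1), and KO ones did in 7 of 9 pairs (0.057 to 0.533). The stromal sums also kept the same replicate order at 0, 4 and 16 h within each genotype, despite the separate mouse numbers. Whether same-numbered macrophage libraries share a source of cells was not tested, and the main fit did not pair them. The labels give the pathogenic and non-pathogenic libraries the same source numbers, which pairs them. Precision is limited by 3 or 4 libraries per group. Alternatives were the pseudocount, the filter, the scaling, leaving out each library, the block, a fit on the compared groups alone and, for peaks, DESeq2.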

Additional observations from a re-analysis of the deposited data

Results flagged for a closer look

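The genotype difference in macrophages depended on time for 10 genes, by the limma test of 16 h minus 0 h: the log2 values were 1.08 for Fasn, 1.08 for Sqle, 1.08 for Stard4, 0.92 for Fdps, 0.84 for Idi1, 0.77 for Mvd, 0.67 for Hsd17b7, 0.54 for Cyp51, 0.47 for Insig1 and 0.47 for Srebf2. Between 16 h and 4 h it differed for Fdps (0.73) and Insig1 (0.55).

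Among the 4 KO-labelled naive libraries, the highest stood far from the other 3 for 2 of the 34 genes listed, replicate 3 for Fdft1 and replicate 4 for Soat1: the highest library of Fdft1 had 8.595 CPM (6.62 to 6.95 CPM in the others) and the highest of Soat1 had 21.01 CPM (16.1 to 16.3 CPM in the others). Chance alone sets a library apart in about 1 of 20 groups.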

How the results depend on the processing

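Most counts of called genes kept within 1.5 times under the pseudocount of 0.1, no filter, a filter of 5 CPM, median-ratio scaling, the replicate block and the fit of the compared groups alone; the exceptions follow, and the cause was not tested. KO vs WT at 4 h gave 1 with the 2 groups alone. The 16 h minus 0 h count was 5 with median-ratio scaling. The 16 h minus 4 h count was 1 with median-ratio scaling and 4 with the genotype and number as a random replicate block. KO-labelled naive cells gave 1 with no filter, 1 with 5 CPM, 1 with median-ratio scaling and 5 with the replicate block (2 up, 3 down). W250S naive cells gave 1 with the pseudocount of 0.1, 1 with no filter, 1 with 5 CPM, 0 with median-ratio scaling and 4 with the replicate block. W250S non-pathogenic cultures gave 9 with median-ratio scaling. ATAC peaks gave 1 with DESeq2 and 1 with no filter. The replicate block moved no other count by over 1.5 times.

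Leaving out single libraries gave 0 to 0 called genes for KO vs WT at 0 h, 0 to 2 at 4 h and 11 to 16 at 16 h. It gave 29 to 30 (KO) and 31 to 33 (WT) for 4 h over 0 h, 29 to 30 (KO) and 30 to 31 (WT) for 16 h over 0 h, and 23 to 25 for 16 h over 4 h in WT. It gave 0 to 0, 5 to 9 and 1 to 4 for the genotype difference at 4 h minus 0 h, 16 h minus 0 h and 16 h minus 4 h. In T cells it gave 1 to 2 (KO-labelled naive), 0 to 3 (W250S naive), 0 to 1 (pathogenic), 0 to 8 (non-pathogenic), 0 to 0 (pathogenic minus non-pathogenic) and 0 to 4 peaks (ATAC, 4 without WT replicate 1).

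With median-ratio scaling 15 values of called genes changed sign. At 4 h over 0 h these were Idi1 (0.41), Insig2 (0.26), Nr1h2 (0.44), Nr1h3 (0.053), Sc5d (0.41) and Srebf2 (0.45) in WT, and Cyp51 (0.41), Fdft1 (0.07), Hmgcs1 (0.16), Hsd17b7 (0.25), Insig2 (0.38) and Nr1h2 (0.55) in KO. At 16 h over 4 h in WT they were Msmo1 (-0.059), Nr1h2 (-0.071) and Stard4 (-0.073). Genes not called as reported also changed sign and were called up at 4 h over 0 h: Idi1 (0.63), Npc2 (0.75), Sc5d (0.51), Scap (0.58) and Srebf2 (0.70) in KO, and Abca1 (0.80) and Scap (0.62) in WT; at 16 h over 0 h Insig2 (0.27), Nr1h2 (0.36) and Soat1 (0.38) in WT and Nr1h2 (0.29) in KO did. Counted over each alternative and each left-out library of every comparison, 2266 values of called genes kept their call and direction and 177 lost the call. The edgeR test on reads recovered from the CPM steps was not run, because between 89.5% and 96.1% of low values were whole reads.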
